A study of Mus musculus with 10 samples.

Results

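The mitosis and G2/M genes are 42 mouse genes whose products build the spindle, hold and part the chromosomes, and carry a cell from the G2 phase through division. They were chosen by gene symbol, 1 transcript row per symbol, and all 42 were found among the 23992 symbols of the deposited tables. Where a symbol had several rows, as 11 of the genes did, the row with the highest mean reads stood for it. The 10 RNA libraries, in 4 groups, came from regulatory T cells (Tregs) of C57BL/6J mice, the CD4 lineage that Foxp3 specifies and that holds other immune cells in check. Natural Tregs (nTregs) from the spleens of wild-type mice were kept in culture for 24 h with anti-CD3 and anti-CD28, antibodies that stimulate the T cell receptor (TCR), either with thymic stromal lymphopoietin (TCR + TSLP, 2 libraries) or without it (TCR, 2 libraries). TSLP is a cytokine of epithelia, and its receptor pairs the Crlf2 chain with that of Il7r. Tregs from allergic lung tissue of mice immunized with ovalbumin (OVA) came from Crlf2fl/fl Foxp3YFP-Cre conditional knock-outs (Crlf2-deleted, 3 libraries) and from Foxp3YFP-Cre mice, whose genotype is labelled wild-type (control lung, 3 libraries). Both lung groups carry Cre expressed from Foxp3, which confines the deletion to cells that express Foxp3 or once did, and both were immunized. The labels state neither age nor the number of animals, and do not say that replicates are separate mice or cultures. The p-values therefore cover only the spread between the libraries at hand, part or all of which may be technical.

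In G2, cyclin B and the kinase Cdk1 form the complex that starts mitosis, held back by inhibitory phosphates that the Cdc25 phosphatases remove. The spindle checkpoint then restrains the anaphase-promoting complex until every kinetochore is attached, after which cyclin B and securin are destroyed, sister chromatids part and the cell is cut apart at its central spindle. Most of these genes are transcribed late in the cell cycle, and resting T cells, which enter the cycle only after stimulation, express them at low levels.

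Gene reads, summed over 1 row per symbol, were 34852320 and 51671903 in the TCR + TSLP libraries and 27866035 and 27237310 in the TCR libraries. They were 9647692, 11581596 and 18349048 in the Crlf2-deleted libraries and 7970210, 1439673 and 12179207 in the control lung libraries, so that control lung 2 was the shallowest. Crlf2, the deleted gene, had 9.06, 6.73 and 3.55 normalised reads (CPM, scaled for library composition) in Crlf2-deleted Tregs, against 92.8, 146 and 105 in control lung Tregs. Control lung 3 stood apart from the other lung libraries in RNA of other cells. On CPM not scaled for composition, its 6 erythroid genes summed to 98737, against 1166 to 4675 in the other 5 lung libraries. Its 7 measured macrophage and monocyte genes summed to 3765 on that scale, against 250 and 374 in the other controls. The Crlf2-deleted libraries had 990, 1017 and 999. Foxp3 was at 174 on the same scale in control lung 3, against 411 to 528 in the other 5. The 4 spleen libraries had no read of Sftpc or Scgb1a1, genes of lung epithelium.

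The 42 genes took a larger share of reads in the cultured spleen Tregs than in the lung Tregs. They made up 0.758% and 0.772% of gene reads in the TCR + TSLP libraries and 0.555% and 0.591% in the TCR libraries. The share was 0.119%, 0.124% and 0.115% in the Crlf2-deleted libraries and 0.155%, 0.166% and 0.109% in the control lung libraries. On these shares, not scaled for composition, the TCR + TSLP libraries lay above both TCR libraries. The 2 lung groups overlapped because of control lung 3, which was lower than every other library. After composition scaling, the 42 genes summed to 7069 to 7071 CPM in TCR + TSLP and 5997 to 6424 in TCR, a narrower gap. They summed to 1103 to 1151 in Crlf2-deleted and 1256 to 1654 in control lung libraries, without overlap. The 95% Wilson interval of control lung 2, the widest of the 10, ran from 0.159% to 0.173% and, like all such intervals here, covers counting error only. In RNA from a mixture of cells, fewer dividing cells and less RNA per dividing cell cannot be told apart. A list of 32 genes of DNA replication and S phase followed a like order, with 0.652% and 0.658% in TCR + TSLP, 0.472% and 0.52% in TCR, 0.14% to 0.141% in Crlf2-deleted and 0.123% to 0.166% in control lung libraries.

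**Figure D1:**
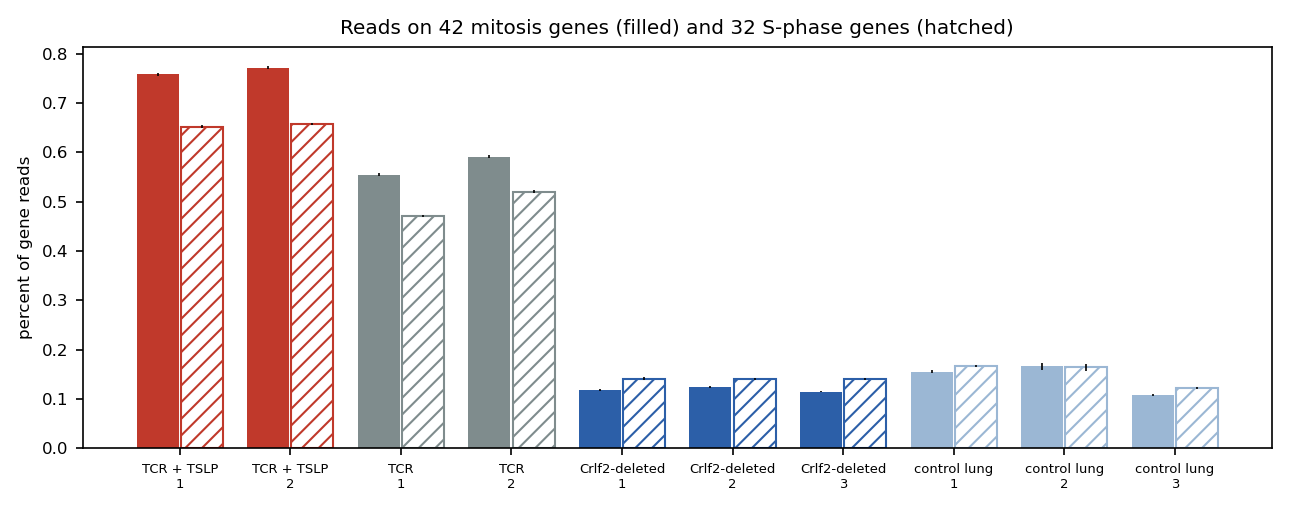
Share of gene reads (percent, not scaled for composition) on the 42 mitosis genes (filled bars) and on 32 S-phase genes (hatched bars) in each library, with 95% Wilson intervals. The TCR + TSLP bars of the mitosis genes stand at 0.758 and 0.772, above the TCR bars at 0.555 and 0.591, and the lung bars lie between 0.109 and 0.166.

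Levels were compared between genes on the authors' RPKM scale, which divides reads by transcript length and by a library total larger than the gene reads. The median of the 42 mean levels was 21.1 RPKM in TCR + TSLP, 13.3 in TCR, 1.22 in Crlf2-deleted and 1.34 in control lung Tregs. RPKM is not scaled for composition, so gaps between groups on this scale are not the tested fold changes. Gene reads were 44.46% and 44.13% of the library total in TCR + TSLP, against 37.8% and 42.67% in TCR. On the rows chosen, the highest level in the spleen cultures was that of Ube2c, the ubiquitin-conjugating enzyme of the anaphase-promoting complex, at 107 ± 0.495 RPKM in TCR + TSLP and 96.4 ± 4.66 in TCR (SD, n = 2 each). Top2a, the topoisomerase that untangles sister chromatids, ranked next in TCR + TSLP at 85.2 ± 0.272, against 47.5 ± 6.27 in TCR. The lowest level was that of Anln, which encodes the contractile ring protein anillin, at 2.73 ± 0.0269 in TCR + TSLP and 1.23 ± 0.0716 in TCR. In TCR a shorter Birc5 row with nearly the same reads, at 94.8 and 113 RPKM, would rank above Ube2c. In the lung the highest level on the rows chosen belonged to Cenpa, the histone H3 variant of centromeres, at 18.1 ± 1.95 RPKM in Crlf2-deleted and 12.8 ± 0.868 in control lung Tregs (SD, n = 3 each). A shorter row of Pttg1, at 16.1, 14.9 and 13.1 RPKM, would rank above Cenpa in control lung Tregs. The lowest belonged to Ttk, a checkpoint kinase, at 0.122 ± 0.0895 and 0.0862 ± 0.0413 in the same order of groups.

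The genes were not lower in the lung by a common factor. Relative to the TCR cultures, CPM not scaled for composition were 0.24-fold in control lung Tregs at the median of the 42 genes. They ran from 0.0482-fold for Ttk to 3.06-fold for Pttg1. Pttg1, which encodes the anaphase inhibitor securin, was the 1 member above the TCR level. It had 6.96, 8.04 and 7.85 RPKM in Crlf2-deleted and 7.58, 6.88 and 5.98 in control lung Tregs, set beside 4.66 and 3.94 in TCR + TSLP and 4.69 and 5.45 in TCR. Cenpa (0.502-fold), Prc1 (0.509-fold), Racgap1 (0.609-fold) and Anln (0.71-fold) also kept more of their level than the median member, while Bub1 (0.101-fold), Cenpe (0.105-fold) and Top2a (0.13-fold) kept less. Spleen and lung Tregs differ in tissue and culture and may differ in library kit, so these ratios carry no test. The ratios also depend on the scale. Gene reads were 17.89%, 14.95% and 22.16% of the RPKM library total in control lung, against 37.8% and 42.67% in TCR. Ratios of RPKM are therefore lower. Mean RPKM in control lung and TCR was 6.81 and 5.07 for Pttg1, and 0.382 and 1.23 for Anln. Mki67, the gene of the proliferation antigen Ki-67 that coats mitotic chromosomes, had 30.7 and 33.5 RPKM in TCR + TSLP and 27.7 and 27.9 in TCR. It had 1.45, 1.25 and 1.43 RPKM in Crlf2-deleted and 1.46, 1.92 and 1.46 in control lung Tregs.

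**Figure D2:**
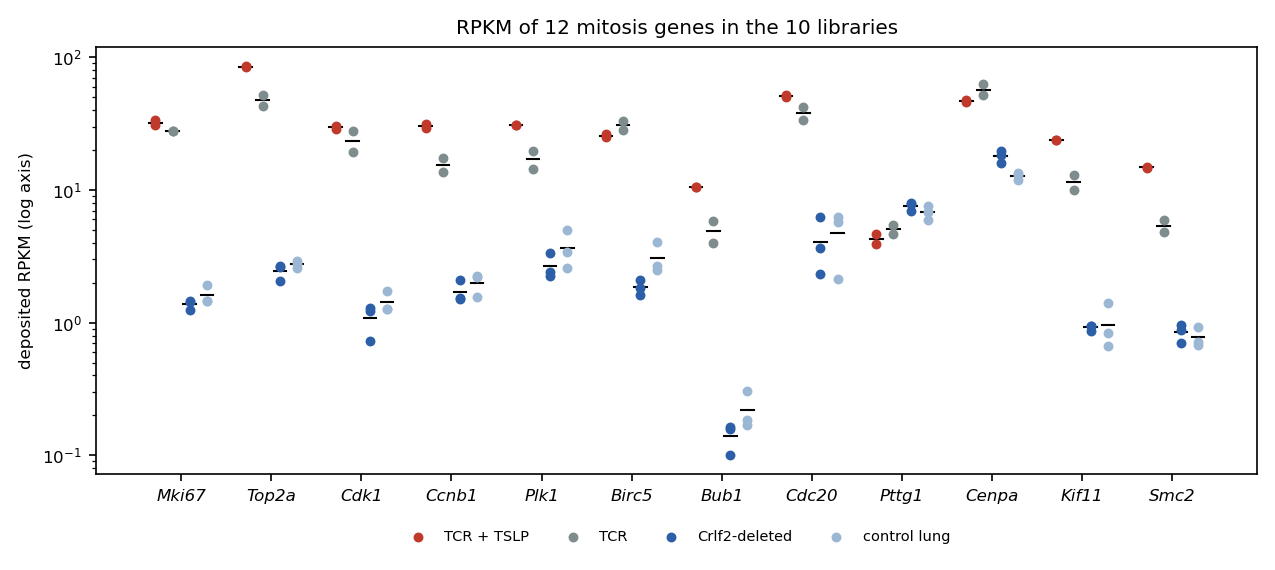
Deposited RPKM (log axis) of 12 of the 42 genes, 1 point per library and a bar at each group mean, for TCR + TSLP, TCR, Crlf2-deleted and control lung Tregs. Apart from Pttg1, each of the 12 genes has all 4 spleen points above all 6 lung points.

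Promoters are shown because late cell cycle genes share letters near their start sites, and these 6 cover genes that rose with TSLP (Smc2, Kif11, Top2a), fell (Cenpa, Birc5) or did not pass the test (Cdc20). The windows run from 250 bases before to 50 bases after the RefSeq start (build GRCm38.p6) and are written in the direction of transcription. Capitals mark CCAAT, the letters read by the factor NF-Y, and TTTGAA, the cell cycle genes homology region read by the MuvB complexes, on either strand (ATTGG and TTCAAA on the other). The windows lie at chr4:52438971-52439270, plus strand (Smc2), chr19:37376132-37376431, plus strand (Kif11), chr11:99024140-99024439, minus strand (Top2a), chr4:118437294-118437593, minus strand (Cdc20), chr5:30666636-30666935, plus strand (Cenpa) and chr11:117848987-117849286, plus strand (Birc5).
Smc2: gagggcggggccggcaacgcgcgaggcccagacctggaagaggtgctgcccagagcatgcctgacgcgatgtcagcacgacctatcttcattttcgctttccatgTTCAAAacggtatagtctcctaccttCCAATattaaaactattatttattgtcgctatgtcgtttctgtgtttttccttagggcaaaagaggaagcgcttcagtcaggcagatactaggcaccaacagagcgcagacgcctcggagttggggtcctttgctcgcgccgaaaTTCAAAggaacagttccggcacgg
Kif11: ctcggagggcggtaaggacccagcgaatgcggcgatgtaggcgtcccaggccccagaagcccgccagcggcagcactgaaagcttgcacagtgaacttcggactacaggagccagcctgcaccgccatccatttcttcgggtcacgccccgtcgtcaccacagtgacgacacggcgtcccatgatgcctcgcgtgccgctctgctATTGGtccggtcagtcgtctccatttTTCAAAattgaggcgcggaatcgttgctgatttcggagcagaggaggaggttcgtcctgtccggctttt
Top2a: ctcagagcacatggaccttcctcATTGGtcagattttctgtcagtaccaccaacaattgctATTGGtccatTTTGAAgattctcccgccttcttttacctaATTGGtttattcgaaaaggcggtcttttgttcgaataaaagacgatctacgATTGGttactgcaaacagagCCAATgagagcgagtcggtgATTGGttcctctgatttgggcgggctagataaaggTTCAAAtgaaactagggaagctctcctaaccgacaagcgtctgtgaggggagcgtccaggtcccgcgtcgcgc
Cdc20: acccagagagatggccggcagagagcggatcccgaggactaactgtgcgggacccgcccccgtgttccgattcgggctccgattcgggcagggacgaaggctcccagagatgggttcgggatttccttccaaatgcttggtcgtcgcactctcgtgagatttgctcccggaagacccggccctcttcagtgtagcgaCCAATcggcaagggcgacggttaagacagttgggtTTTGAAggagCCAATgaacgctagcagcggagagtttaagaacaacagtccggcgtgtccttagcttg
Cenpa: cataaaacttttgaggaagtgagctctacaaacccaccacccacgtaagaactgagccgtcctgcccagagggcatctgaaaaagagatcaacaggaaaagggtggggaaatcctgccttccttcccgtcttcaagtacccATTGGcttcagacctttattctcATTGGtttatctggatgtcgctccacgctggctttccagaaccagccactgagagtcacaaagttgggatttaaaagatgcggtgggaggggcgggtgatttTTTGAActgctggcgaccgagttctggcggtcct
Birc5: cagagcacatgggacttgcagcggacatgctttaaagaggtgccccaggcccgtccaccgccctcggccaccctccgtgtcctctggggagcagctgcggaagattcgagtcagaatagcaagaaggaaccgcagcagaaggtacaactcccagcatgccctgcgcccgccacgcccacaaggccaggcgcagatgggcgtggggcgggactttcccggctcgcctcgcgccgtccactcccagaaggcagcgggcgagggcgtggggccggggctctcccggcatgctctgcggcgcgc

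A window was given for 35 of the 42 genes. CCAAT stood in 27 of these 35 (77.1%), against 41.1% of 27025 mouse genes with a window of the same length. TTTGAA stood in 26 (74.3%), against 20.2%, and both motifs in 23 (65.7%), against 7.97%. The Top2a window held CCAAT 6 times and TTTGAA 2 times, and the Birc5 window held neither. CCAAT was found in 12 of 14 genes that rose with TSLP, 1 of 3 that fell and 14 of 18 that did not pass, and TTTGAA in 10 of 14, 1 of 3 and 15 of 18. A match is a description of these letters only, and no match says only that they are not in this window. Ccna2, Cdc25c, Aurkb, Incenp, Tpx2, Kif20a and Smc4 had no window in the table used.

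The spleen cultures were compared to ask what TSLP does on top of a T cell receptor stimulus. Of the 42 genes, all of which were tested, 18 rose, 4 fell and 20 did not pass. The rises were 42.9% of the members, against 22.7% of all 13214 genes tested, and the falls 9.52%, against 23.1% (edgeR quasi-likelihood test, Benjamini-Hochberg adjustment over all genes, threshold 0.05). The median log2 fold change of the members was 0.27, beside 0.01 over all genes tested. Both TSLP libraries lay above both TCR libraries in 27 members (64.3%, against 38.1% of all genes) and below them in 7 (16.7%, against 37.3%). In 34 of the 42 members (81%) the log2 fold change was above 0, against 50.5% of all genes. Most members thus leaned upward, while the calls went both ways. Checkpoint, cytokinesis and chromosome genes were among the rises, and the falls came from 4 different roles. Levels below are normalised reads, that is, CPM after composition scaling. The counts by role below are to be read beside the 22.7% higher and 23.1% lower of all genes tested.

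**Figure D3:**
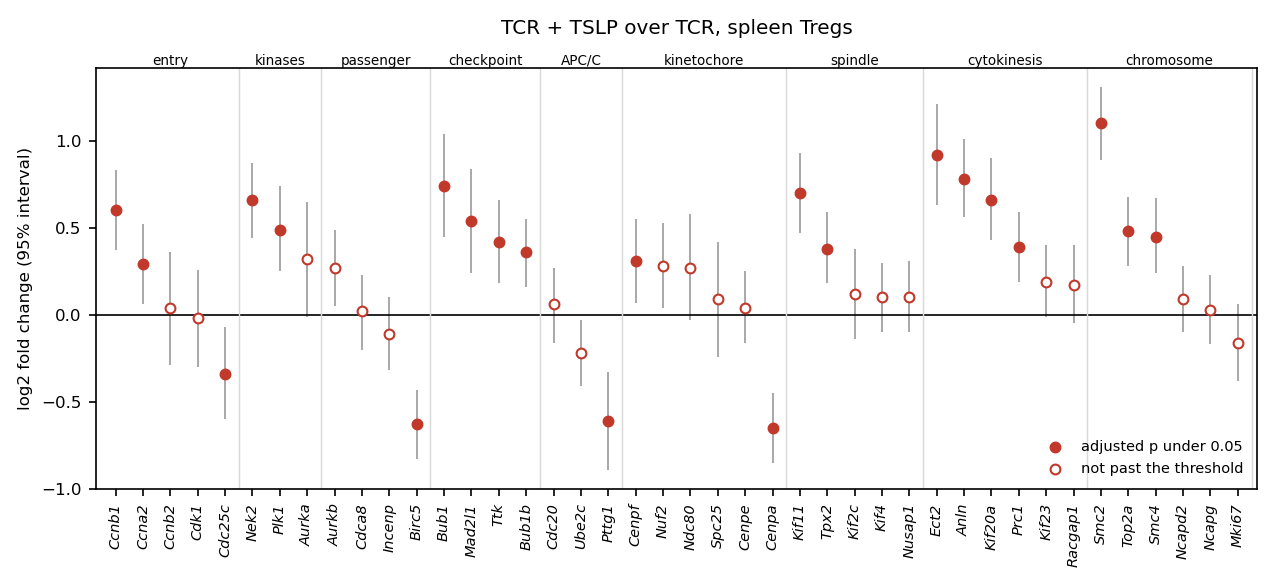
Log2 fold change with its 95% interval for the 42 genes, TCR + TSLP over TCR (n = 2 each), grouped by role. Filled points are past the threshold, from Smc2 at 1.10 to Cenpa at -0.65, and all 4 checkpoint genes are filled above 0.

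Among genes of mitotic entry, 2 of 5 rose and 1 fell. Ccnb1, which encodes cyclin B1, had 142 and 150 normalised reads in TCR + TSLP, against 89.8 and 103 in TCR. The groups did not overlap, and Ccnb1 rose by a log2 of 0.60 (SE 0.10, adjusted p = 0.00232). Ccna2, which encodes cyclin A2, had 310 and 302 in TCR + TSLP, against 231 and 271 in TCR, and passed narrowly (log2 0.29, SE 0.10, adjusted p = 0.0462). Its partner kinase gene Cdk1 did not pass, with 183 and 172 in TCR + TSLP lying between 158 and 202 in TCR (log2 -0.02, 95% interval -0.30 to 0.26). Ccnb2, the gene of cyclin B2, likewise overlapped at 100 and 95.9 in TCR + TSLP, against 80.7 and 111 in TCR (log2 0.04, -0.29 to 0.36). Cdc25c, the phosphatase gene, had 21.6 and 19.6 in TCR + TSLP, against 24.2 and 27.8 in TCR, and fell by 0.34 on the log2 scale (SE 0.11, adjusted p = 0.0426), but stood at 0.03 on the deposited RPKM scale.

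The kinases that drive centrosome and spindle maturation were higher or did not pass. Plk1, Polo-like kinase 1, had 143 and 141 normalised reads in TCR + TSLP, against 91.6 and 110 in TCR (log2 0.49, SE 0.11, adjusted p = 0.00708). Nek2, which splits the centrosomes, rose by a log2 of 0.66 (SE 0.09, adjusted p = 0.0011). Aurka, Aurora kinase A, had 98.6 and 95.7 in TCR + TSLP, against 65.6 and 90.4 in TCR. Its groups did not overlap, but the 2 TCR libraries differed widely and it did not pass (log2 0.32, SE 0.14, adjusted p = 0.103).

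All 4 spindle checkpoint genes rose, but none of the 4 was called with all 4 groups in 1 fit (adjusted p from 0.1 to 0.638). Of 19 further checkpoint and anaphase-promoting complex genes, listed apart, 6 rose and 4 fell, with a median log2 fold change of -0.04. Bub1, a kinase recruited to unattached kinetochores, had 96.7 and 94.1 normalised reads in TCR + TSLP, against 49.5 and 64.3 in TCR (log2 0.74, SE 0.13, adjusted p = 0.00258). Mad2l1, whose product Mad2 inhibits the anaphase-promoting complex, had 107 and 108 against 63.8 and 84.5 (log2 0.54, SE 0.13). Ttk and Bub1b, which encode the checkpoint proteins Mps1 and BubR1, rose by a log2 of 0.42 and 0.36. None of the 3 genes of the anaphase-promoting complex and its targets rose. Cdc20, its activator, had 187 and 192 in TCR + TSLP, overlapping 171 and 193 in TCR (log2 0.06, adjusted p = 0.641). Ube2c had 209 and 208 in TCR + TSLP, against 247 and 236 in TCR, and did not pass (log2 -0.22, adjusted p = 0.063). Pttg1 fell, with 16.5 and 13.8 in TCR + TSLP, against 22.6 and 23.5 in TCR (log2 -0.61, SE 0.12, adjusted p = 0.00504).

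Falls in the centromere and the chromosomal passenger complex were those of Cenpa and Birc5. Cenpa had 134 and 127 normalised reads in TCR + TSLP, against 197.2 and 213 in TCR, which is -0.65 on the log2 scale (SE 0.09, adjusted p = 0.000913). Birc5, which encodes survivin, the passenger subunit that brings Aurora B to centromeres, had 190 and 177 in TCR + TSLP, against 278 and 291 in TCR (log2 -0.63, SE 0.09, adjusted p = 0.000989). In both genes each TSLP library lay below each TCR library by more than the libraries of a group differed. The other 3 passenger genes did not pass: Aurkb, Aurora kinase B, had 145 and 147 in TCR + TSLP, against 113 and 130 in TCR (log2 0.27, adjusted p = 0.0523), and Cdca8 and Incenp stood at log2 0.02 and -0.11. Of 6 centromere and outer kinetochore genes, Cenpf rose, with 85.6 and 89.5 in TCR + TSLP, against 76 and 64.9 in TCR (log2 0.31, SE 0.10, adjusted p = 0.0389). Cenpe, a kinetochore motor, overlapped at 124 and 125 in TCR + TSLP, against 126 and 115 in TCR (log2 0.04, adjusted p = 0.727). The Ndc80 complex genes Ndc80, Nuf2 and Spc25, whose products grip microtubules, stood at log2 0.27, 0.28 and 0.09, none past the threshold.

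Of 5 kinesin and spindle genes, 2 rose. Kif11, the motor Eg5 that pushes spindle poles apart, had 243 and 238 normalised reads in TCR + TSLP, against 136 and 160 in TCR (log2 0.70, SE 0.10, adjusted p = 0.00114). Tpx2, an activator of Aurora A, rose by a log2 of 0.38. Kif2c, Kif4 and Nusap1 lay between 0.10 and 0.12 and did not pass. Of 6 genes of the central spindle and cytokinesis, 4 rose. Ect2, the exchange factor that activates RhoA at the cleavage plane, had 50.5 and 54 in TCR + TSLP, against 24.3 and 30.8 in TCR (log2 0.92, SE 0.13, adjusted p = 0.000991). Anln had 30.8 and 30.9 in TCR + TSLP, against 18.2 and 17.6 in TCR (log2 0.78, SE 0.10, adjusted p = 0.00067). Kif20a, a motor of the central spindle, and Prc1, which bundles its microtubules, rose by a log2 of 0.66 and 0.39, whereas Kif23 and Racgap1, the centralspindlin pair that recruits Ect2, stood at 0.19 and 0.17 and did not pass.

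Of 6 chromosome genes, 3 rose. Smc2, a core subunit of both condensins, which compact chromosomes, had 164 and 166 normalised reads in TCR + TSLP, against 73.1 and 80.9 in TCR. This was the largest fold change of the 42 genes, 2.14-fold (log2 1.10, SE 0.09, adjusted p = 0.000161). Its partner Smc4 had 459 and 461 in TCR + TSLP, against 316 and 356 in TCR (log2 0.45, SE 0.09, adjusted p = 0.00546), while the condensin I subunits Ncapg and Ncapd2 stood at 0.03 and 0.09 and did not pass. Top2a had 934 and 920 in TCR + TSLP, against 641 and 690 in TCR (log2 0.48, SE 0.09, adjusted p = 0.0035). Mki67, the usual proliferation marker, did not pass, with 649 and 699 in TCR + TSLP, against 796 and 716 in TCR (log2 -0.16, 95% interval -0.38 to 0.06, adjusted p = 0.192).

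The count of rises depended on the libraries and the scale. It was 12 without TSLP library 1 and 12 without TSLP library 2, 18 without TCR library 1 and 29 without TCR library 2, against 12.7%, 10.6%, 28.4% and 31.8% of all genes tested in the same order. TCR library 1 lay below TCR library 2 in 35 of the 42 genes (median log2 -0.18), against 52.8% of all genes (median -0.02). Without 1 library a group holds 1 sample, which is assumed to vary like the pair left in the other group, and the TSLP pair differed less than the TCR pair (chi-square per degree of freedom of 6.18 and 27.8). Of the 22 calls, 14 were made in all 4 of these fits, and of the 20 members not called, 6 were called in none of them. Cdk1 was called lower without TCR library 1 (-0.19, adjusted p = 0.0336) and higher without TCR library 2 (0.18, adjusted p = 0.0368). The calls on Ccna2, Bub1b, Ttk, Cenpf, Tpx2, Prc1 and Cdc25c were lost without TSLP library 1 and without TSLP library 2 (adjusted p from 0.0751 to 0.386), that on Cdc25c also without TCR library 2 (0.0522), and that on Pttg1 without TSLP library 2 (0.0933). With library totals in place of composition scaling, 32 members were called higher, against 38.3% of all genes, and 3 lower, against 15.1%, and the median was 0.50 beside 0.24 over all genes. With all 4 groups in 1 fit, only Kif20a, Smc2 and Top2a were called higher, against 3.75% of all genes, and only Cenpa lower, against 5.64%. On the deposited RPKM scale 30 were called higher, against 43% of all genes, and 0 lower, against 9.47% (limma), and the falls of Birc5, Cenpa and Pttg1 were not called there (-0.25, -0.28 and -0.20).

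Fold changes in this comparison moved with transcript length over all genes. Their median was -0.76 for 1210 genes of up to 1 kb, -0.23 for the next class and 0.20 for genes between 4 and 5 kb, and Spearman's rho with length was 0.35 over 13214 genes and 0.39 over the 42 members. Genes share libraries and are not independent, so these are descriptions. Most members are longer than 2 kb, and only Ube2c, at 931 bp, is under 1 kb. With the length trend removed, 20 members were called higher, against 23.2% of all genes, and 3 lower, against 18.1%, and 16 of the 18 rises and 3 of the 4 falls were among them. Ccna2, Tpx2 and Cdc25c lost their calls (adjusted p = 0.0742, 0.0649 and 0.0997), and Ube2c turned to 0.31 (adjusted p = 0.019). With a trend on GC content removed as well, 17 were called higher, against 22.4%, and 5 lower, against 16.5%. Smc4 (0.12), Top2a (0.17) and Ttk (0.20) then no longer passed (adjusted p = 0.271, 0.132 and 0.0969), and 13 rises and 3 falls held in all 3 fits. The falls of Birc5, Pttg1 and Cenpa were at -0.74, -0.45 and -0.35 with the length trend removed and at -0.81, -0.54 and -0.43 with both removed. Birc5 has rows of 3416 bp and 972 bp with nearly the same reads (7163 and 6792 in TCR library 1), so its length and its RPKM (28.4 and 94.8) depend on the row.

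**Figure D4:**
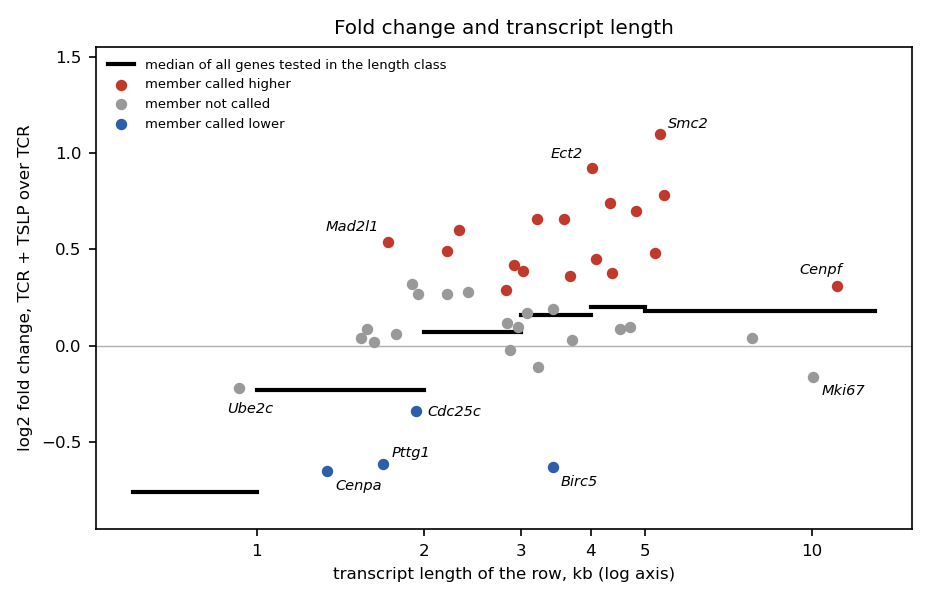
Log2 fold change, TCR + TSLP over TCR, of the 42 genes (points) against transcript length (kb, log axis), with the median of all genes tested in each length class (bars). The bars run from -0.76 to 0.20, Smc2 stands at 1.10 above its class, and Birc5 at -0.63 below its class.

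Other genes of mitosis, listed apart from the 42, showed a like mixture. Of 123 tested, 59 rose, 17 fell and 47 did not pass, beside 22.7% higher and 23.1% lower of all genes, with a median log2 fold change of 0.28. The cohesin, condensin and sister chromatid list had 11 rises and no fall among 15, led by Pds5a and Rad21, regulator and subunit of the cohesin ring (log2 1.22 and 1.01), and the condensin II subunit gene Ncapd3 (0.90). Of 22 further spindle, kinesin and centrosome genes, 15 rose and 2 fell. The rises included Plk4, the kinase of centriole duplication (log2 0.80), and Ckap5, a microtubule polymerase (0.70), and the falls were Tacc3 (-0.38) and Kif22 (-0.29). With the length trend removed, 13 of this list were called higher and 1 lower. Tacc3 was then at -0.41 (adjusted p = 0.0136), and Kif22, at -0.22, was not called (adjusted p = 0.0812).

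Kinetochore and anaphase-promoting complex genes went both ways, as did all genes tested, of which 22.7% were called higher and 23.1% lower. The medians of the 2 lists below were 0.11 and -0.04, beside 0.01 over all genes. Of 29 further kinetochore and centromere genes, 10 rose and 6 fell. Casc5, the scaffold that docks Bub1, and Cenpc1, which binds centromeric nucleosomes, had 34 and 43.1 normalised reads on average in TCR + TSLP, against 16.6 and 21.4 in TCR (log2 1.04 and 1.01). Cenpw and Cenpm, small proteins of the inner kinetochore, had 32.8 and 41 in TCR + TSLP, against 72 and 82.2 in TCR (log2 -1.13 and -1.0). Of 19 further checkpoint and anaphase-promoting complex genes, 6 rose, among them the subunit genes Cdc27 (0.65) and Anapc1 (0.48), and 4 fell, among them the small subunit genes Anapc13 (-1.45) and Anapc11 (-1.18). Removal of the length trend left Anapc11 at -1.28 and Anapc13 at -0.34.

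Regulators of G2/M transcription were mostly higher. Of 15, 10 rose and 1 fell, a count to be read, like those below, beside 22.7% higher and 23.1% lower of all genes. Tfdp1, the dimer partner of E2F factors, had 212 and 225 normalised reads in TCR + TSLP, against 69.7 and 81.3 in TCR (log2 1.53, SE 0.10, adjusted p = 0.000159). The pocket protein gene Rbl1 (log2 1.16) and the MuvB subunit gene Lin9 (1.07) rose, and the MuvB subunit gene Lin37 fell (-0.72), a fall not called with the length trend removed (-0.24, adjusted p = 0.0809). Foxm1 and Mybl2, activators that bind MuvB at late cell cycle promoters, did not pass (0.19 and 0.08, adjusted p = 0.118 and 0.455). Of 14 genes that control Cdk1 in G2, 5 rose, among them the Plk1 activator Bora (0.68) and the inhibitory kinase gene Wee1 (0.43), and 3 fell, among them Arpp19, an inhibitor of the phosphatase that opposes Cdk1 (-1.20), and the inhibitory kinase gene Pkmyt1 (-0.35). Of 9 further cytokinesis genes, 2 rose and 1 fell.

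The other comparison asked how Tregs of the allergic lung differ when they lack Crlf2. Of the 42 genes, 1 fell (2.38%), 0 rose and 41 did not pass, against 1.01% lower and 0.771% higher among all 12717 genes tested. At an unadjusted p under 0.05, 11 members were lower and 0 higher (26.2% and 0%), against 9.12% and 6.74% of all genes. The median log2 fold change was -0.51 over the members, beside -0.04 over all genes, and 36 of 42 members (85.7%) were below 0, against 54.2%. The groups did not overlap in 13 members, all with Crlf2-deleted Tregs lower (31%, against 11.6% of all genes). The reverse held for 10.5% of all genes. DESeq2 called 4 members lower, Birc5, Ccna2, Kif20a and Top2a, against 3.96% of all genes. With all 4 groups in 1 fit Cenpe and Mki67 joined them, making 6, against 3.42%.

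**Figure D5:**
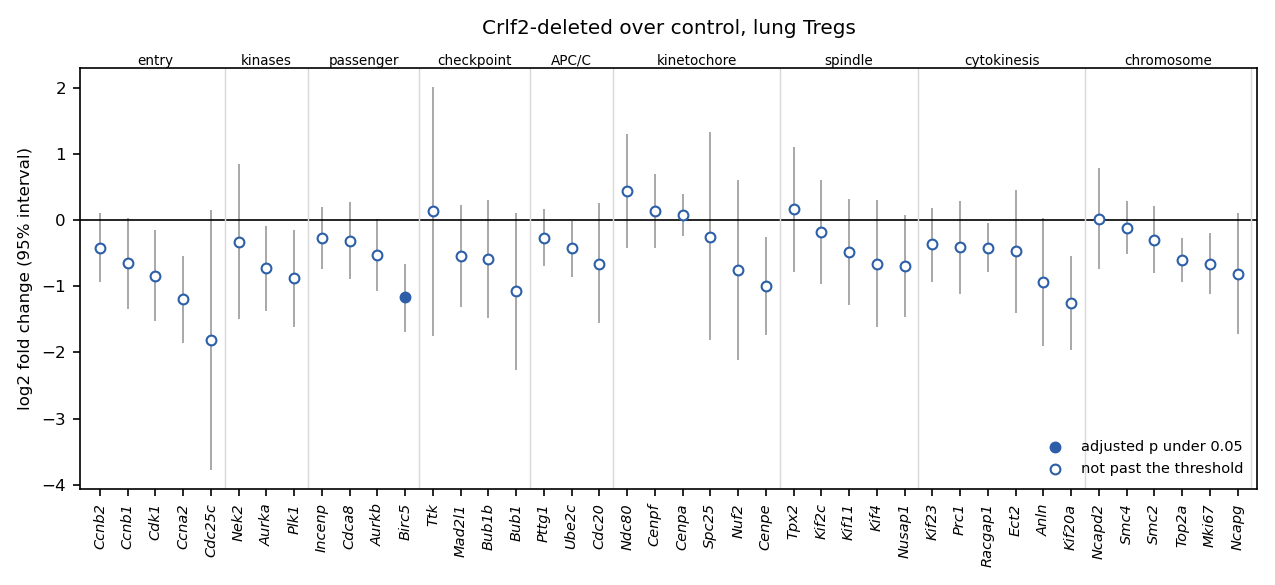
Log2 fold change with its 95% interval for the 42 genes, Crlf2-deleted over control lung Tregs (n = 3 each), grouped by role. Birc5 at -1.17 is the filled point, past the threshold, and 36 of 42 points lie below 0 with intervals that mostly span it.

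Birc5 had 27.9, 25.5 and 29.1 normalised reads in Crlf2-deleted Tregs, against 81.7, 56.1 and 47.7 in control lung Tregs. The Crlf2-deleted libraries lay close together and below all controls, and Birc5 fell by 1.17 on the log2 scale (SE 0.23, adjusted p = 0.046). This call was lost without each library except control lung 3 (adjusted p from 0.0922 to 0.238, log2 -0.90 to -1.21), with library totals alone (-1.0, 0.0853) and with the length trend removed (-1.16, 0.0793). Without control lung 3, Birc5 stood at -1.35 (adjusted p = 0.0125), and Ccna2 and Plk1 also passed, 3 members against 2.17% of all genes lower. Birc5 was thus called lower in the main test of both comparisons, with TSLP added and with Crlf2 deleted, though neither call held under all settings. With TSLP it was not called with all 4 groups in 1 fit (-0.59, adjusted p = 0.107) or by limma on log2(RPKM + 1) (-0.25, adjusted p = 0.176). The share of all genes called lower in both comparisons was not counted.

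None of the 5 entry genes passed in the lung, and their median was -0.84. Ccna2 had 19.7, 22.3 and 31 normalised reads in Crlf2-deleted Tregs, against 56.3, 75.9 and 38.7 in control lung Tregs (log2 -1.20, SE 0.29, adjusted p = 0.086). Cdk1 had 15.7, 9.61 and 15.1 in Crlf2-deleted Tregs, against 29.7, 23.9 and 18.7 in controls (log2 -0.84, SE 0.30, adjusted p = 0.224). In both genes the groups did not overlap, though the controls spread widely. Ccnb1 had 21.7, 16.4 and 14.1 in Crlf2-deleted Tregs, against 30.8, 33.5 and 18.8 in controls, which overlap (log2 -0.65, adjusted p = 0.333). Ccnb2 overlapped too, at 49.4, 40 and 36.2 against 43.1, 73.2 and 54.2 (log2 -0.42). Cdc25c was at 0.261 to 1.92 in Crlf2-deleted and 1.37 to 6.24 in control lung Tregs. Its log2 fold change of -1.81 could not be told from 0 (95% interval -3.77 to 0.15). It rested on few reads, 18, 24 and 5 in Crlf2-deleted and 40, 2 and 66 in control lung libraries. The cause of the wide interval was not tested.

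None of the 3 kinase genes outside the passenger complex and none of the 4 checkpoint genes passed in the lung. Plk1 had 22.2, 34.4 and 21.7 normalised reads in Crlf2-deleted Tregs, against 65.4, 49.3 and 29.8 in control lung Tregs (log2 -0.88, SE 0.32, adjusted p = 0.228). Aurka had 8.76, 12.8 and 12.4 in Crlf2-deleted Tregs, against 19.3, 16.4 and 20.5 in controls, with no overlap (log2 -0.73, adjusted p = 0.256). Aurkb had 20.4, 33.1 and 28 against 44.1, 41.7 and 32.4 in the same order of groups (log2 -0.53, adjusted p = 0.329). Bub1 was at 1.95 to 3.28 in Crlf2-deleted and 4.16 to 7.89 in control lung Tregs (log2 -1.08, SE 0.52, adjusted p = 0.359), a gene with few reads in the lung. The checkpoint genes Bub1b (log2 -0.59), Mad2l1 (-0.54) and Ttk (0.13) overlapped between the groups, as did the kinase gene Nek2 (-0.33), and Ttk had 1.27, 0.641 and 2.61 in Crlf2-deleted Tregs, against 0.669, 2.05 and 1.7 in controls. Of the anaphase-promoting complex genes, Ube2c had 28, 39.6 and 35.7 in Crlf2-deleted Tregs, against 46.7, 47.9 and 45.3 in controls (log2 -0.43, adjusted p = 0.307). Cdc20 ranged from 19.3 to 45.2 in Crlf2-deleted Tregs and from 25.3 to 66.1 in controls, and Pttg1 from 52.5 to 63.1 and from 52.5 to 76.6, both without passing (log2 -0.66 and -0.27).

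None of the 6 centromere and outer kinetochore genes passed in the lung. Their median was -0.08, beside -0.40 for the 29 further kinetochore and centromere genes, and Cenpa, at 95.4, 115 and 108 normalised reads in Crlf2-deleted Tregs, against 107, 104 and 90.6 in control lung Tregs, stood at 0.08 (95% interval -0.24 to 0.40). Cenpf stood at 0.14 and Ndc80 at 0.44, both without passing (95% intervals -0.42 to 0.69 and -0.43 to 1.30). Cenpe had 6.91, 6.09 and 5.8 in Crlf2-deleted Tregs, against 12.4, 11.6 and 13.3 in controls, groups that do not overlap (log2 -1.0, SE 0.32, adjusted p = 0.176). Nuf2 and Spc25 overlapped between the groups (log2 -0.75 and -0.25). Whether the centromere genes differ from the other roles was not tested.

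Among the chromosome, spindle and cytokinesis genes, Top2a had one of the smallest errors. It had 61.1, 49.9 and 56.1 normalised reads in Crlf2-deleted Tregs, against 86.3, 88.3 and 79.9 in control lung Tregs (log2 -0.60, SE 0.14, adjusted p = 0.086). Mki67 had 65.3, 58.6 and 58.6 in Crlf2-deleted Tregs, against 87.9, 127 and 76.5 in controls (log2 -0.66, SE 0.20, adjusted p = 0.156). In both genes every Crlf2-deleted library lay below every control. Kif20a had 8.08, 5.85 and 7.88 against 20.3, 15.1 and 16.4 (log2 -1.25, SE 0.31, adjusted p = 0.0932), again with no overlap. Smc4 overlapped at 108, 117 and 108 in Crlf2-deleted Tregs, against 105, 155 and 105 in controls (log2 -0.12), as did Kif11 at 18.7, 21.2 and 18.6 against 23.9, 44.5 and 16.7 (log2 -0.49). Anln was at 3.81 to 8.65 in Crlf2-deleted and 9.56 to 15.1 in control lung Tregs (log2 -0.93, adjusted p = 0.329).

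None of the 123 tested genes of the other mitosis lists passed in the lung (edgeR, median log2 -0.22, beside -0.04 over all genes). At an unadjusted p under 0.05 there were 10 lower and 5 higher (8.13% and 4.07%). The shares of all genes tested were 9.12% and 6.74%, so neither count exceeded them. Spc25 had 102, 1 and 101 reads in the control lung libraries, so its level in the shallow control rests on 1 read. On the deposited RPKM scale the members' median was -0.04, beside 0.21 over all genes. RNA of cell type markers also differed between the lung libraries. The sums that follow are CPM not scaled for composition. Summed over 9 measured T cell and Treg genes, they were 4837, 4729 and 5058 in Crlf2-deleted and 3939, 4348 and 2152 in control lung libraries. Summed over 9 lung epithelium and stroma genes, nearly all from Scgb1a1, they were 15523, 19076 and 2406 in Crlf2-deleted and 72924, 16558 and 20566 in control lung libraries. Summed over 7 macrophage and monocyte genes, they were 990, 1017 and 999 in Crlf2-deleted and 250, 374 and 3765 in control lung libraries. The part of these differences in the members' values was not tested. Without control lung 3, the library with the most blood cell RNA, the members' median was -0.66, beside -0.01 over all genes, and all 3 Crlf2-deleted libraries then had more macrophage and monocyte RNA than both controls.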

How the data were processed

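The members, their roles and the other gene lists were chosen with earlier results of these data known. The counts deposited are whole numbers of reads for each RefSeq transcript row. The authors' RPKM divides them by row length and by a library total larger than the gene reads. Per the submitters' processing notes, the tools were edgeR, bedtools 2.25.0, SAMtools 0.1.8, TopHat2 2.2.1 and Bowtie2 2.2.6, on mm10. Per the labels' protocols, TCR-stimulated nTreg libraries came from a stranded total RNA kit with ribosomal depletion, read as 50 bp ends. The sources used here do not give the lung kit, the counting tool or the strand rule, so genes that overlap others are uncertain.

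Counts were tested within each comparison by the quasi-likelihood test of edgeR 4.0.16 (R 4.3.3, TMM, filterByExpr with a minimum count of 10, robust, two-sided). Unless another tool is named, an adjusted p is Benjamini-Hochberg over all genes of this test. The SE is the log2 fold change divided by the root of F. Alternatives used DESeq2 1.42.0, limma 3.58.1 on log2(RPKM + 1) and log2(RPKM + 0.1), other scalings and filters, summed transcripts, a loess trend (span 0.3) on length or on length and GC, and each library left out. The test was tried on simulated counts. Counts of replicates differed beyond sampling noise (chi-square per degree of freedom of at least 6.18), so each was kept. Genes with values in every library were named by a list of 20 members and by rank of fold change, and up to 3 genes by p from each other list.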

Additional observations from a re-analysis of the deposited data

How the results depend on the processing

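With TSLP, members called higher numbered 3 with all 4 groups in 1 fit (Kif20a, Smc2 and Top2a), 32 with library totals alone, and 30 by limma on log2(RPKM + 1) and 30 on log2(RPKM + 0.1), and 12 to 29 with 1 library left out. Members called lower numbered 1 with all 4 groups (Cenpa), 0 and 0 on the 2 RPKM scales, and 2 to 6 with 1 library left out. Their median was 0.50 with totals, 0.56 and 0.65 on RPKM with pseudocounts of 1 and 0.1, and 0.13 to 0.36 with 1 library left out. Of all genes, 3.75% were called higher with all 4 groups, 38.3% with totals and 43% on log2(RPKM + 1). The shares called lower were 5.64%, 15.1% and 9.47% in the same order. On log2(RPKM + 0.1), 6973 genes were called in either direction. All genes called numbered 3663 at an RPKM of at least 5, 1356 with all 4 groups, and 3212 to 8626 with 1 library left out. Of 15 members that changed sign under some setting, 4 had a call in one of the 2 fits set side by side: Cdk1 (-0.19 to 0.18 with 1 library left out, above 0 without TCR library 2), Cdc25c on both RPKM scales (0.03 and 0.04), Ube2c with the length trend removed (0.31, also 0.31 with the block, 0.34 with GC) and Ncapg with length and GC removed (-0.30). The other 11 (Ccnb2, Cdc20, Cdca8, Cenpe, Incenp, Kif2c, Kif4, Mki67, Ncapd2, Nusap1 and Spc25) lay between -0.16 and 0.12 and turned to values between -0.18 and 0.26, without a call in either fit. The cause was not tested, except that on the RPKM and totals scales the median of all genes itself lay higher.

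In the lung, members called lower numbered 4 by DESeq2 and 6 with all 4 groups, against 3.96% and 3.42% of all genes. They numbered 0 at an RPKM of at least 5 (7 members tested), with length, length and GC, or length and the block removed, with totals alone, on both RPKM scales, without robust moderation, with the block and with summed transcripts, and 0 to 3 with 1 library left out. The median was -0.30 at an RPKM of at least 5, -0.04 and -0.07 on RPKM, and -0.66 to -0.40 with 1 library left out. Signs changed under some setting for 15 members, 0 of them with a call in either fit. All genes called numbered 868 by DESeq2, 873 with all 4 groups, 95 with length removed, 95 with GC too, 106 with length and the block, 804 and 856 on RPKM, 121 with the block, 134 with summed transcripts, and 4 to 532 with 1 library left out.

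The labels do not say whether replicate numbers pair the samples, so they were not treated as pairs. Deviations of same-numbered lung libraries correlated at 0.084, -0.148 and -0.045. Those of the spleen libraries correlated at -0.125, and crossed numbers at 0.125, which 2 libraries a group make equal and opposite. With the replicate number as a block, 18 members were called higher and 3 lower with TSLP (5817 genes in all), and 0 lower in the lung. A crossed pairing, chosen after seeing the data, gave 22 and 5 members and 7105 genes. With the block, Ccna2 and Cdc25c lost their TSLP calls (adjusted p = 0.0527 and 0.0558).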

Other observations

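Genes of DNA replication and S phase, described beside the mitosis genes, went both ways with TSLP. Of 32 tested, 10 rose, 6 fell and 16 did not pass, beside 22.7% higher and 23.1% lower of all genes, with a median log2 fold change of 0.04. Mcm4, a subunit of the replicative helicase, had 325 and 329 normalised reads in TCR + TSLP, against 159 and 194.4 in TCR (log2 0.89, SE 0.11), and Pola1, the catalytic subunit of the primase polymerase, had 80.6 and 85.6 against 47.7 and 47.4 (log2 0.81). Tyms, which makes thymidylate, had 139 and 137 in TCR + TSLP, against 225 and 193 in TCR (log2 -0.60, SE 0.10). In the lung 0 of 32 passed (edgeR, median -0.40, beside -0.04 over all genes). At an unadjusted p under 0.05 there were 10 lower and 0 higher (31.2% and 0%), against 9.12% and 6.74% of all genes.

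Of 16 genes that slow the cell cycle, 4 rose and 2 fell with TSLP, the rises at a share near the 22.7% of all genes called higher. Cdkn1a, which encodes the kinase inhibitor p21, had 140 and 135 normalised reads in TCR + TSLP, against 87.5 and 92.5 in TCR (log2 0.61, SE 0.09, adjusted p = 0.00119), and Rb1, the retinoblastoma gene, rose by a log2 of 0.70. Gadd45g, a stress-induced gene, was called lower in both comparisons, as were 23.1% of all genes with TSLP and 1.01% in the lung. It had 56.2 and 54.6 in TCR + TSLP, against 95.1 and 95.8 in TCR (log2 -0.78, SE 0.09). With the length trend removed, Gadd45g stood at -0.35 in that comparison (adjusted p = 0.0123). It had 57.6, 86.2 and 64.2 in Crlf2-deleted Tregs, against 187, 168 and 157 in control lung Tregs (log2 -1.30, SE 0.18, adjusted p = 0.0181), and was the 1 gene of this list called in the lung. The 2 comparisons share no library, and the share of all genes called lower in both was not counted.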
